A study of Mus musculus with 6 samples.

Results

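The genes described here encode enzymes, most of them of amino acid breakdown or glucose synthesis. Some act in fructose or inositol use, or in creatine, polyamine or arginine synthesis. All are from a list of 46 names, set by function and not by a cut on expression. The list was chosen with earlier results of these data known. Of the 46 names, 45 were measured among the 18193 genes of the array. Amt, which encodes the aminomethyltransferase of the glycine cleavage system, is not analysed here. Each gene is represented by the brightest of its probe sets, the array's short groups of oligonucleotides that report 1 transcript.

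The study compared juxtaglomerular (JG) cells, the renin-secreting cells of the afferent arteriole, with renal mesenchymal stromal cells (MSC). Both came from adult C57BL6 mice of the genotype Ren1c YFP, a reporter strain in which yellow fluorescent protein marks renin cells. The 3 JG samples are YFP-positive sorted cells, and the 3 MSC samples were sorted by the surface antigen CD44 and then grown to confluence, in DMEM with serum. The labels repeat that medium for the JG samples, so whether JG cells were cultured too is not settled, and culture and cell type cannot be told apart. No treatment is named, no age beyond adult is given, and the labels leave unsaid whether the 3 samples per group are distinct animals. The p-values therefore measure the spread between these samples, which may be technical.

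In the kidney, amino acid breakdown and gluconeogenesis are known as functions of the proximal tubule, whose cells take filtered amino acids back, oxidise them in mitochondria and peroxisomes, and release glucose made from lactate and glutamine. Gluconeogenesis reverses glycolysis through a few dedicated enzymes, of which phosphoenolpyruvate carboxykinase, fructose bisphosphatase and glucose-6-phosphatase are members here. Amino acid breakdown removes the nitrogen and feeds the carbon skeletons of each amino acid family into the citric acid cycle or into ketone bodies. Proliferating cells in culture are known to use several of the opposite, synthetic reactions.

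Of the 45 measured members, 26 were called higher in JG by limma at an adjusted p under 0.05, and 0 were called lower. Of all 18193 genes 7.7% were called higher and 7.63% lower. At an unadjusted p under 0.05 the members counted 35 higher and 0 lower, against 2788 and 2996 of all 18193 genes. The median log2 difference, JG minus MSC, was 2.44 over the members and 0.07 over all genes (log2 differences throughout are of intensity + 16). In 35 members every JG sample exceeded every MSC sample, an order that 20.2% of all genes showed, and in 0 members every JG sample lay below every MSC sample, against 18.5% of all genes. The added 16 units damp the noise of dim probe sets and make a log2 difference understate the change of a gene that is dim in 1 group. In 13 of the 26 called members all MSC samples lay below 16, as in 475 of all 1401 genes called higher. Values given for a gene are intensities of the array scanner in samples 1, 2 and 3 of a group, a difference is followed by its SE, and each adjusted p is from limma over all genes.

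**Figure D1:**
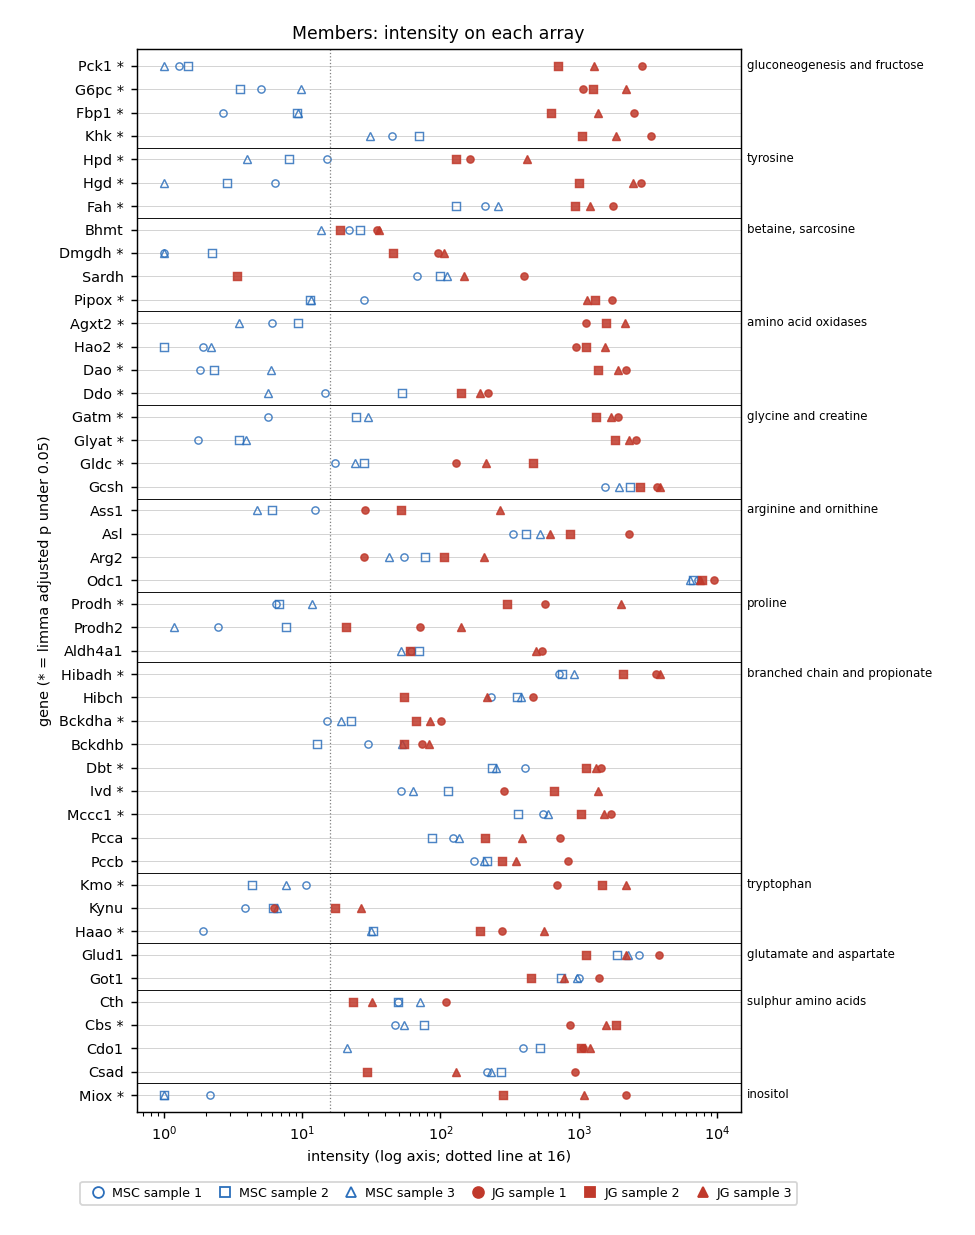
Intensity (log axis) of the 45 measured members on each of the 6 arrays, in order of pathway, with JG samples filled and MSC samples open and an asterisk beside the 26 called members. In 35 rows all filled symbols lie to the right of all open ones, and the remaining 10 rows overlap.

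Markers of other kidney cells moved with these genes, and they were measured in the same arrays. All 12 measured proximal tubule markers, among them the phosphate carrier Slc34a1 and the endocytic receptor Lrp2, were called higher in JG, and their summed intensity ran from 35737 to 44679 in JG and from 391 to 719 in MSC. Of the thick ascending limb markers 5 of 6 were called higher (sums of 8869 to 12628 in JG and 125 to 479 in MSC), of the distal tubule 6 of 6 (2830 to 12722 and 83.6 to 98.5) and of the collecting duct 4 of 6 (2854 to 4949 and 66.2 to 109). Endothelial markers were called higher in 3 of 7 (sums of 884 to 1344 and 60.6 to 189), macrophage markers in 3 of 7 (795 to 2775 and 120 to 451) and podocyte markers in 0 of 4, with 2 lower (441 to 1780 and 2516 to 4598). The podocyte markers called lower were Synpo and Wt1, and Synpo alone read 4101, 3690 and 2145 in MSC, most of that sum. Nphs1 and Podxl went the other way, above MSC in every JG sample, and were not called. The JG cell list had Rgs5 and Myh11 called higher and Acta2 lower among 6 measured genes, and Ren1 and Akr1b7 are not analysed here. Summed JG cell markers ran from 3051 to 4236 in JG and from 8279 to 9007 in MSC, where Acta2 alone read 8050.4, 8681 and 8467. Summed MSC markers ran from 3332 to 3696 in JG and from 6284 to 7526 in MSC. Of the 7 measured, Cd44, Pdgfrb and Itgb1 were lower and Thy1 and Nt5e higher in JG, and the defining sort antigen gene Cd44 read 153, 119 and 144 in JG and 1005, 1035 and 881 in MSC. The lowest marker value was 1.00, which recurred among markers and members, and none of them lay below it. It may be a floor of the deposited values, so the lack of a 0 does not show that every marker had a signal. Pecam1 was the dimmest endothelial marker in JG, at 8.86, 7.02 and 31.3. The endothelial markers called higher were Tek, Cdh5 and Emcn, of which Tek read 572, 168 and 404 in JG. The part of tubule cells in the results below was not tested, and in bulk samples fewer cells of a type and less RNA per cell cannot be told apart.

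Promoter sequences are shown first for Pck1 and Agxt2, which were called higher in JG and hold a motif reported here. The sequence before the start site was available for 39 of the 45 members (RefSeq, build GRCm38.p6), and 4 motifs are reported, searched on both strands in the 250 bases before the start. They were the HNF4 site CAAAGTCCA, the cyclic AMP response element TGACGTCA, its variant TTACGTCA and the amino acid response element TGATGNAAT, and neither match shown overlapped another. HNF4 letters were found in 1 of 39 members (2.56%) and in 0.451% of 27025 genes with a promoter, and the cyclic AMP variant in 1 (2.56%) and 0.525%. The plain cyclic AMP element and the amino acid response element were in 0 of 39 members, against 1.77% and 0.91% of all genes. A match is a description of letters and not of binding. Capitals mark the match in each line, which runs 5′ to 3′ on the gene's strand and ends at the base before the start site.
Pck1 (chr2:173152823-173153072, plus strand, cyclic AMP variant at bases 93 to 86 before the start): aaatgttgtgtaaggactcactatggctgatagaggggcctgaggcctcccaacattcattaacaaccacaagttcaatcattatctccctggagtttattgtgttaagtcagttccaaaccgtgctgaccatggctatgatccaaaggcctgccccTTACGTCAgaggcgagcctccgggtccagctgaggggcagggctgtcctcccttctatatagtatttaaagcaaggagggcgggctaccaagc
Agxt2 (chr15:10358329-10358578, plus strand, the second of its 2 annotated starts, HNF4 letters at bases 67 to 59 before it): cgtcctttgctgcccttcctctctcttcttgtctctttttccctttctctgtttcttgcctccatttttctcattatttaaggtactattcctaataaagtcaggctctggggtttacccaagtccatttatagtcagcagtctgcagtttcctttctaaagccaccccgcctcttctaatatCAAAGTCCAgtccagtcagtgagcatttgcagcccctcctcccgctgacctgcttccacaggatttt

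The 4 members of glucose synthesis and fructose use were all called higher in JG, and 3 of the 4 were below 16 in every MSC sample. Of 8 other measured genes of this pathway 4 were called higher and Pck2 lower, and Fbp2, G6pc3 and Mdh2 were not called. Pck1, the cytosolic phosphoenolpyruvate carboxykinase that commits oxaloacetate to glucose synthesis, read 2866, 714 and 1301 in JG samples 1 to 3 and 1.28, 1.48 and 1.00 in the MSC samples. Its difference was 6.35 ± 0.50 (adjusted p = 0.000653). Fbp1, the fructose bisphosphatase of the next dedicated step, read 2503, 631 and 1389 in JG and 2.66, 9.17 and 9.27 in MSC, a difference of 5.85 ± 0.50 (adjusted p = 0.000942). G6pc, the glucose-6-phosphatase subunit that frees glucose, read 1078, 1279 and 2196 and 5.01, 3.57 and 9.72 (6.06 ± 0.33, adjusted p = 0.000160). JG sample 1 was the highest of its group for Pck1 and Fbp1 and the lowest for G6pc, so the genes of this pathway did not share 1 order of the JG samples. Khk, the ketohexokinase that phosphorylates fructose, stood at 3358, 1057 and 1875 in JG and 44.3, 70.4 and 30.8 in MSC and differed by 4.93 ± 0.47 (adjusted p = 0.00137). The groups of all 4 members were apart, with the lowest JG value many times the highest MSC value. For Pck1 another 2 probe sets were present, of which 1 was called higher (6.35 on the brightest, 3.61 on this one) and the other was not (2.00, adjusted p = 0.182 over all probe sets).

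All 3 members of tyrosine breakdown were called higher in JG. Hpd, which turns hydroxyphenylpyruvate into homogentisate, read 163, 130.3 and 422 in JG and 15.1, 8.0 and 3.96 in MSC (3.20 ± 0.46, adjusted p = 0.00668). Hgd, the homogentisate dioxygenase of the following step, read 2832, 998 and 2489 in JG against 6.32, 2.84 and 1.00 in MSC, the second largest difference of the members at 6.65 ± 0.43 (adjusted p = 0.000292). Its other probe set differed by 1.94 and was not called (adjusted p = 0.106 over all probe sets). Fah, the fumarylacetoacetate hydrolase that ends the pathway, was the only one of the 3 with a clear signal in MSC: 1761, 941 and 1214 in JG and 210.3, 129.6 and 262 in MSC, with a difference of 2.61 ± 0.36 (adjusted p = 0.00587). JG sample 2 was the lowest of its group for each of these genes.

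The betaine and sarcosine pathway was split. Pipox, the peroxisomal oxidase of sarcosine and pipecolate, read 1750.1, 1317 and 1146 in JG and 28.1, 11.4 and 11.7 in MSC (5.44 ± 0.30, adjusted p = 0.000175). Dmgdh, the mitochondrial dimethylglycine dehydrogenase, read 96.2, 45.5 and 107 and 1.00, 2.24 and 1.00, with a difference of 2.44 ± 0.32 (adjusted p = 0.00486). In both genes the groups were apart, though Dmgdh reached at most 107 in JG. Sardh, the sarcosine dehydrogenase of mitochondria, read 401, 3.36 and 148 in JG and 67.3, 99.2 and 111 in MSC, so that JG samples lay both above and below all MSC samples, and its difference of 0.04 ± 1.06 (adjusted p = 0.983, 95% interval -2.52 to 2.60) left a wide range. Bhmt, the methyltransferase that uses betaine to remethylate homocysteine, was dim in both groups at 34.5, 18.7 and 36.0 and 21.6, 26.1 and 13.6 (0.32 ± 0.28, adjusted p = 0.474).

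The 4 members among amino acid oxidases and glyoxylate enzymes were all called higher in JG, and the JG samples of each gene lay close together. Dao, the peroxisomal oxidase of D-amino acids, read 2206, 1390.2 and 1918 in JG and 1.81, 2.31 and 5.97 in MSC (6.56 ± 0.26, adjusted p = 6.35e-05). Hao2, a peroxisomal hydroxy acid oxidase, read 959, 1137 and 1553 and 1.91, 1.00 and 2.18 (6.09 ± 0.26, adjusted p = 7.07e-05). Agxt2, the mitochondrial aminotransferase that passes amino groups to glyoxylate, read 1137, 1574 and 2145 and 6.06, 9.39 and 3.49 (6.16 ± 0.30, adjusted p = 0.000110). All MSC values of these 3 genes lay below 10, and the highest JG value was 1.59 times the lowest for Dao, 1.62 for Hao2 and 1.89 for Agxt2. The probe set of Dao, its only one, has the suffix s, which marks possible matches to several transcripts. Ddo, the oxidase of D-aspartate, read 219.9, 139.8 and 193 in JG and 14.7, 52.9 and 5.62 in MSC and had a smaller difference of 2.46 ± 0.46 (adjusted p = 0.0176). Ddo lost its call without MSC sample 1, MSC sample 3 or JG sample 3, with adjusted p of 0.0774, 0.0626 and 0.0578. None of its other 3 probe sets was called. Of 4 other measured genes of glyoxylate and hydroxyproline use, 2 were called higher in JG and 0 lower. Agxt (0.37, adjusted p = 0.382) and Hao1 (-0.43, adjusted p = 0.223) were not called. Hao1 was below 16 on every array, with every MSC sample above every JG sample.

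Glycine and creatine enzymes included the gene with the largest difference of the list. Glyat, the mitochondrial acyltransferase that joins glycine to benzoate and other acids, read 2609.6, 1827 and 2304 in JG and 1.75, 3.46 and 3.92 in MSC, and differed by 6.88 ± 0.24 (adjusted p = 4.52e-05). That probe set has the suffix s too, and on its brightest probe set without that suffix the difference was 3.46 (adjusted p = 0.00269). Gatm, the first enzyme of creatine synthesis, read 1911, 1329 and 1701 and 5.66, 24.4 and 29.7 (5.59 ± 0.35, adjusted p = 0.000260). Gldc, the decarboxylase of the glycine cleavage system, read 129, 463 and 213 in JG and 17.2, 28.1 and 24.0 in MSC (2.70 ± 0.45, adjusted p = 0.0122). It was 1 of 2 called members that were highest in JG sample 2, and its adjusted p was 0.0603, 0.0527 and 0.0573 without MSC samples 1, 2 and 3. Gcsh, the lipoyl carrier protein of the same system, was bright in both groups, at 3701, 2779 and 3892 and 1558, 2364 and 1944, and the groups did not overlap, but the difference of 0.82 ± 0.27 (adjusted p = 0.0933) did not pass the test.

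None of the 4 genes of arginine and ornithine use was called by limma in either direction, and 2 had an unadjusted p under 0.05, both higher in JG. With 4 genes, a count of 0 says little beside the 7.7% of all genes called higher and 7.63% lower. Ass1, the argininosuccinate synthetase that renal tubules use to make arginine, read 28.6, 51.9 and 268 in JG and 12.4, 6.09 and 4.70 in MSC (2.02 ± 0.68, adjusted p = 0.0978). Asl, the lyase of the next step, read 2292, 869.6 and 617 and 336, 413 and 526 (1.33 ± 0.51, adjusted p = 0.131). Both genes had JG samples above all MSC samples, and in each 1 JG sample stood far from the rest, JG sample 3 for Ass1 and JG sample 1 for Asl. Without JG sample 1 Ass1 was called higher (adjusted p = 0.0321), in a fit where the count of all genes called rose from 2790 to 5194. Odc1, the ornithine decarboxylase that opens polyamine synthesis, was bright in both groups at 9444, 7851 and 7481 and 7255, 6700.0 and 6406, with an interval of -0.26 to 0.81 for the difference. Arg2, the mitochondrial arginase, overlapped between the groups (28.1, 107 and 205 and 54.9, 77.5 and 42.5, adjusted p = 0.572).

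In proline breakdown Prodh was called and its relatives were not. Prodh, the mitochondrial proline dehydrogenase, read 572, 302 and 2025 in JG and 6.41, 6.82 and 11.8 in MSC, a difference of 4.90 ± 0.66 (adjusted p = 0.00537) with JG sample 3 far above the others. Prodh2, the related dehydrogenase that acts on hydroxyproline, read 70.7, 20.7 and 142 and 2.45, 7.64 and 1.18 and lay just outside the threshold at 2.02 ± 0.53 (adjusted p = 0.0513). Of the fits with 1 sample left out, Prodh2 was called only in that without JG sample 2 (adjusted p = 0.00909). Aldh4a1, which oxidises the product of proline breakdown on to glutamate, read 541, 60.6 and 494 in JG and 61.0, 69.8 and 51.8 in MSC. JG sample 2 of Aldh4a1 lay within the MSC range while the other 2 JG samples were several times higher, and the difference of 1.87 ± 0.77 (adjusted p = 0.154) was called without JG sample 2 (adjusted p = 0.00180).

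Branched chain amino acid and propionate genes had a median difference of 1.51, against 2.44 over all members. Of the 9 genes 5 were called higher in JG and 0 lower. Ivd, the isovaleryl dehydrogenase of leucine breakdown, read 289, 662 and 1386 in JG and 51.6, 113 and 63.5 in MSC (2.90 ± 0.58, adjusted p = 0.0223). Dbt, the transacylase core of the branched chain ketoacid dehydrogenase, had the closest JG samples of all called members, 1456, 1131 and 1325, against 406, 238 and 251 in MSC (2.10 ± 0.29, adjusted p = 0.00554). Hibadh, a dehydrogenase of valine breakdown, read 3606, 2079 and 3863 and 725, 759 and 931 (1.92 ± 0.31, adjusted p = 0.0108). The groups of these 3 genes were well apart, and JG sample 1 was the nearest to MSC for Ivd alone. Bckdha, the alpha subunit of the ketoacid dehydrogenase, was dim at 100.4, 67.0 and 84.7 and 15.1, 22.6 and 18.9 (1.51 ± 0.24, adjusted p = 0.0102), and Mccc1, the biotin subunit of methylcrotonyl carboxylase, was 1426 ± 342 in JG and 505 ± 125 in MSC (SD, n = 3 each), a difference of 1.47 ± 0.31 (adjusted p = 0.0268).

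The remaining 4 genes of this family were not called. Pcca and Pccb, the subunits of propionyl carboxylase, read 729, 211 and 388 and 839, 279 and 353 in JG and 122, 86.2 and 137 and 175, 218 and 206 in MSC. Both were above MSC in every JG sample, and their differences were 1.66 ± 0.46 (adjusted p = 0.0592) and 1.07 ± 0.43 (adjusted p = 0.143). Of the fits with 1 sample left out, Pcca was called only in that without JG sample 2 (adjusted p = 0.0198). Bckdhb, the beta subunit of the ketoacid dehydrogenase, was 69.8 ± 14.3 in JG and 31.9 ± 20.1 in MSC (SD, n = 3 each), also without overlap (adjusted p = 0.147). Hibch, a hydrolase of valine breakdown, was the member with the lowest difference, -0.75 ± 0.69 (adjusted p = 0.504), with a 95% interval of -2.42 to 0.92 and values of 470.0, 54.0 and 216 in JG and 233, 357 and 384 in MSC that overlapped. Of the 5 calls, that of Dbt held with any 1 sample left out (adjusted p up to 0.0361) and the other 4 did not. Ivd lost its call on removal of MSC sample 1, 2 or 3 or of JG sample 2 (adjusted p up to 0.0937), and its other probe set, at 2.41, was not called (adjusted p = 0.0520 over all probe sets). Mccc1 lost its call on removal of MSC sample 1, 2 or 3 or of JG sample 3 (up to 0.103). Hibadh lost it without MSC sample 1 or 2 (up to 0.0573) and Bckdha without MSC sample 1 or 3 (up to 0.0556).

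Of the tryptophan breakdown genes Kmo and Haao rose and Kynu was dim in both groups. Kmo, the kynurenine hydroxylase, read 693, 1465 and 2207 in JG and 10.7, 4.31 and 7.60 in MSC (5.83 ± 0.44, adjusted p = 0.000564). Haao, the dioxygenase that forms the precursor of quinolinate, read 278, 194 and 559.6 and 1.90, 32.3 and 31.4 (3.25 ± 0.54, adjusted p = 0.0117). For both, JG sample 3 was the highest. Kynu, the hydrolase between them, was 16.7 ± 10.2 in JG and 5.53 ± 1.46 in MSC (SD, n = 3 each) and was not called (adjusted p = 0.255).

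Glutamate and aspartate enzymes were bright in both groups and showed no called difference. Glud1, the glutamate dehydrogenase that releases ammonia, read 3804, 1133 and 2213 in JG and 2719, 1879 and 2265 in MSC, with a difference of -0.09 ± 0.46 (adjusted p = 0.912) and a 95% interval of -1.20 to 1.02. Got1, the cytosolic aspartate aminotransferase, read 1411, 451 and 783 and 1012, 749 and 969 (-0.18 ± 0.43, adjusted p = 0.813, interval -1.22 to 0.86). In each gene JG sample 1 lay above all MSC samples and JG sample 2 below them, and the intervals span 0 widely.

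Among sulphur amino acid enzymes Cbs was called and the others were not. Cbs, the cystathionine synthase that takes homocysteine into cysteine synthesis, read 863, 1872 and 1568 in JG and 47.2, 75.7 and 54.4 in MSC (4.22 ± 0.35, adjusted p = 0.000868). Its brightest probe set has the suffix s, and the one without it differed by 2.94 (adjusted p = 0.0128). Cth, the lyase of the next step, was dim and overlapped (110.2, 23.2 and 32.1 in JG, 49.2, 49.3 and 71.4 in MSC, adjusted p = 0.792). Cdo1, the dioxygenase that starts cysteine oxidation, read 1073, 1036 and 1202 in JG and 398, 522 and 21.2 in MSC. The JG samples of Cdo1 were close together and all above MSC, but MSC sample 3 stood far below the other MSC samples, and the difference of 2.47 ± 0.99 (adjusted p = 0.147) did not pass. Csad, the decarboxylase of taurine synthesis, read 945, 29.6 and 130.2 in JG and 218, 272 and 230.4 in MSC, so its JG samples lay on both sides of MSC (-0.46 ± 1.03, adjusted p = 0.799).

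Miox, the inositol oxygenase of the renal tubule, read 2197, 281 and 1090.4 in JG and 2.15, 1.00 and 1.00 in MSC (5.69 ± 0.70, adjusted p = 0.00372). Every JG sample was far above MSC, and its JG samples had the widest range of the called members, with the highest 7.82 times the lowest.

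**Figure D2:**
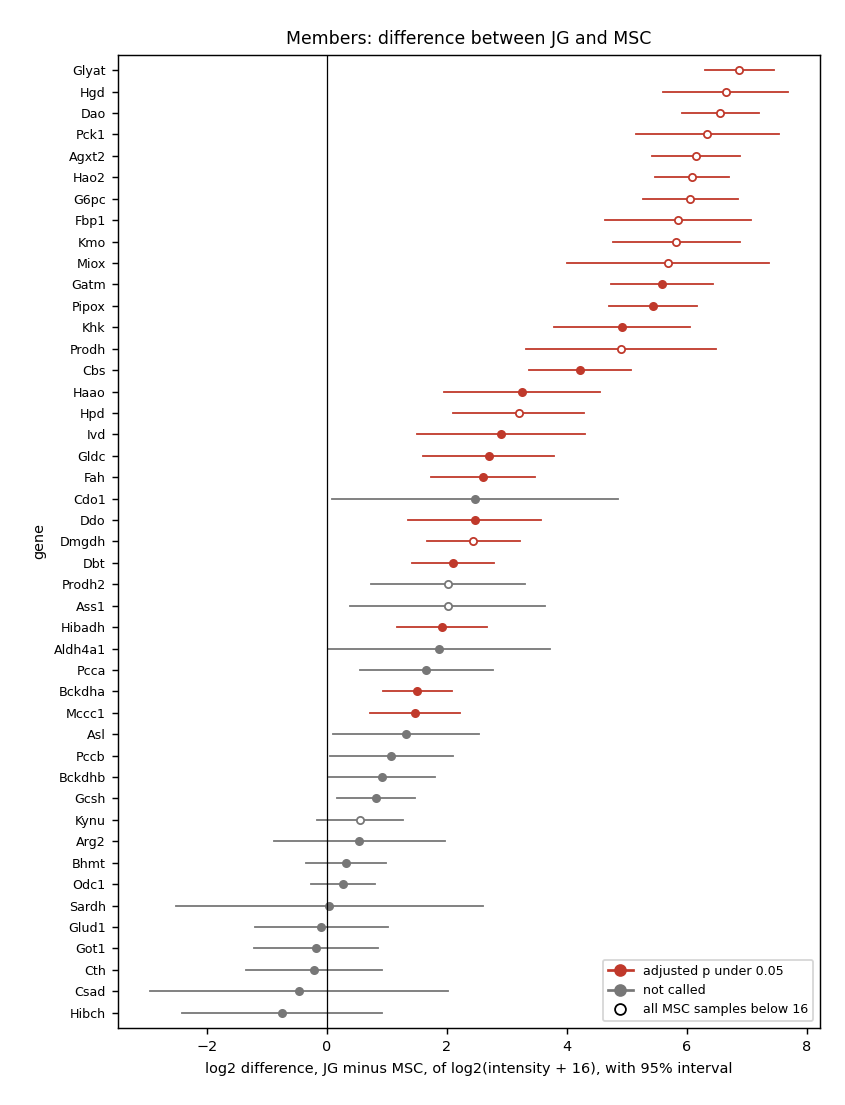
Difference of JG minus MSC for the 45 measured members on the scale of log2(intensity + 16), with its 95% interval from limma. Differences run from -0.75 for Hibch to 6.88 for Glyat, called members are red, and open circles mark members with all MSC samples below 16.

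The JG samples differed among themselves more than the MSC samples did. The median SD of a member on the log2 scale was 0.81 in JG and 0.24 in MSC, and over all genes it was 0.54 and 0.26. The added 16 units narrow the SD of dim genes. All MSC samples lay below 16 in 16 of the 45 members and all JG samples in 0, so part of the gap may come from the scale. JG sample 2 was the lowest JG sample for 18 of the 26 called members, JG sample 1 for 7 and JG sample 3 for 1. Over the 1401 genes called higher in JG the counts were 618, 527 and 256 in the same order. Relative to the JG mean of each gene, the median called member stood at 1.16, 0.76 and 1.06 in JG samples 1, 2 and 3. The same medians were 1.10, 0.86 and 1.07 for the 12 proximal tubule markers and 0.98, 0.93 and 1.05 for all genes called higher. In these medians JG sample 2 was the lowest for all 3 sets, and JG sample 1 the highest for members and tubule markers. By count, JG sample 1 was the highest for 14 of the 26 called members and JG sample 3 for 10. Of the 12 tubule markers 5 were highest in JG sample 1 and 6 in JG sample 3. The source of this spread was not tested. Pck1, Fbp1, Khk and Miox were highest in JG sample 1 and lowest in JG sample 2. Other genes departed from that order, with Prodh, Hpd and Haao highest in JG sample 3 and Gldc and Cbs in JG sample 2. The highest JG value was 7.82 times the lowest for Miox, 6.71 for Prodh and 4.80 for Ivd, and 1.43 for Glyat, 1.44 for Gatm and 1.29 for Dbt.

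**Figure D3:**
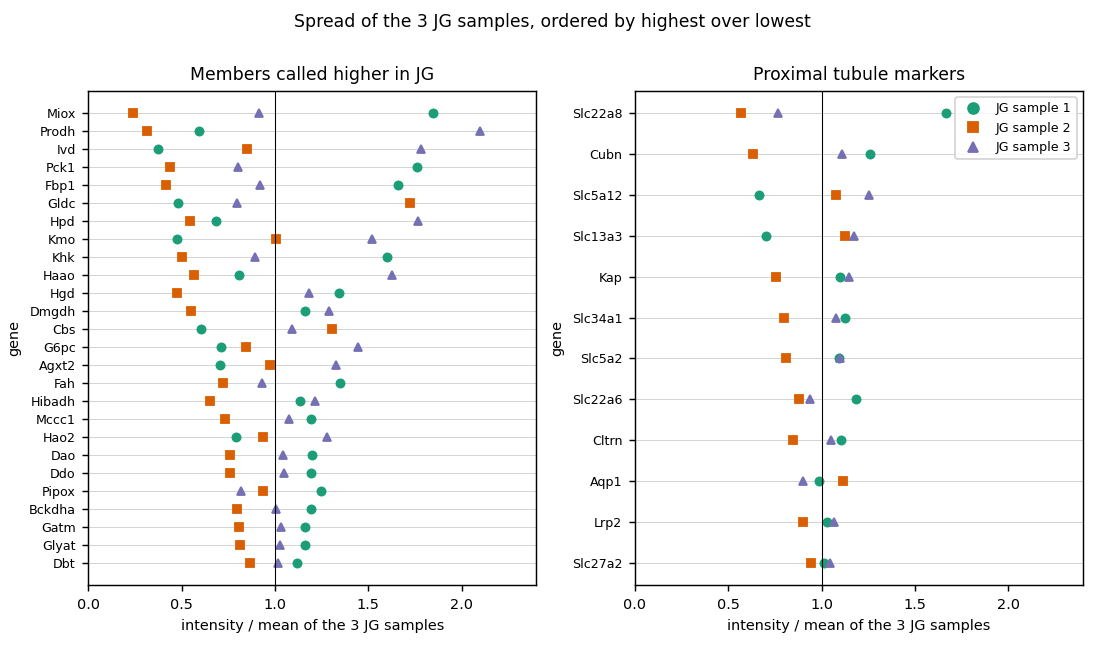
Intensity of each JG sample divided by the mean of the 3 JG samples, for the 26 members called higher in JG (left) and the 12 proximal tubule markers (right), both ordered by the ratio of highest to lowest. JG sample 2 (squares) is the lowest for 18 of the 26 members.

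Other genes of the same pathways, listed by function with earlier results of these data known, are not members. Of 88 listed genes 74 were measured, 28 (37.8%) were called higher in JG, against 7.7% of all genes, and 4 (5.41%) lower, against 7.63% of all genes. The share called lower was thus no larger than that of all genes, and the median difference was 0.78. The 8 with the largest differences upward were the lysine enzyme gene Aass (5.93), the choline dehydrogenase gene Chdh (4.87), the pyruvate carboxylase gene Pcx (4.67), the aspartoacylase gene Aspa (4.66), the hydroxyproline enzyme gene Hoga1 (4.20), the glucose-6-phosphate carrier gene Slc37a4 (4.16), the aminoadipate transferase gene Aadat (3.89) and the histidine enzyme gene Ftcd (3.78). Each of these 8 passed the test with any single sample removed. Pcx, which supplies the oxaloacetate that Pck1 uses, read 768, 1731 and 1625 in JG and 21.9, 40.7 and 47.6 in MSC (4.67 ± 0.40, adjusted p = 0.000919), and Slc37a4, which brings the substrate of G6pc into the endoplasmic reticulum, read 756, 1151 and 623 and 18.6, 32.6 and 43.6 (4.16 ± 0.34, adjusted p = 0.000760). JG sample 1 was not the highest in either gene. None of the 7 measured urea cycle and ornithine genes (Arg1, Otc, Cps1, Nags, Oat, Ddah1 and Agmat) was called by limma in either direction, and 1 had an unadjusted p under 0.05. Over all 18193 genes 2788 were higher and 2996 lower at that unadjusted p. With 7 genes, a count of 0 says little beside the 7.7% and 7.63% of all genes called. Arg1, Otc, Cps1 and Nags were below 16 in every JG sample.

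The 4 pathway genes called lower in JG, Asns, Bcat1, Aldh18a1 and Pck2, are given as single genes. Asns, the asparagine synthetase, read 61.8, 26.0 and 118 in JG and 1189, 1255 and 1743 in MSC (-4.19 ± 0.45, adjusted p = 0.00222), and passed the test with any single sample removed. Bcat1, the cytosolic transaminase of branched chain amino acids, read 329, 72.3 and 35.7 and 1467, 1322 and 1725 (-3.70 ± 0.68, adjusted p = 0.0165), and all 3 of its probe sets were called lower, as were both of Asns. Aldh18a1, which starts proline synthesis from glutamate, read 7.24, 4.09 and 81.8 and 192, 148 and 294 (-2.62 ± 0.64, adjusted p = 0.0420). Pck2, the mitochondrial counterpart of Pck1, read 139, 20.3 and 76.6 in JG and 481, 356 and 551 in MSC (-2.55 ± 0.54, adjusted p = 0.0269). The other probe set of Pck2 was not called (-1.37, adjusted p = 0.150 over all probe sets), and of the 5 probe sets of Aldh18a1 3 were called lower and 2 were not called. Leaving out any 1 MSC sample reduced these 4 calls to 1, and adjusted p reached 0.0754 for Bcat1, 0.155 for Aldh18a1 and 0.111 for Pck2 over the samples left out, with JG samples 1 and 2 also deciding the call of Aldh18a1 and JG sample 3 that of Pck2.

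**Figure D4:**
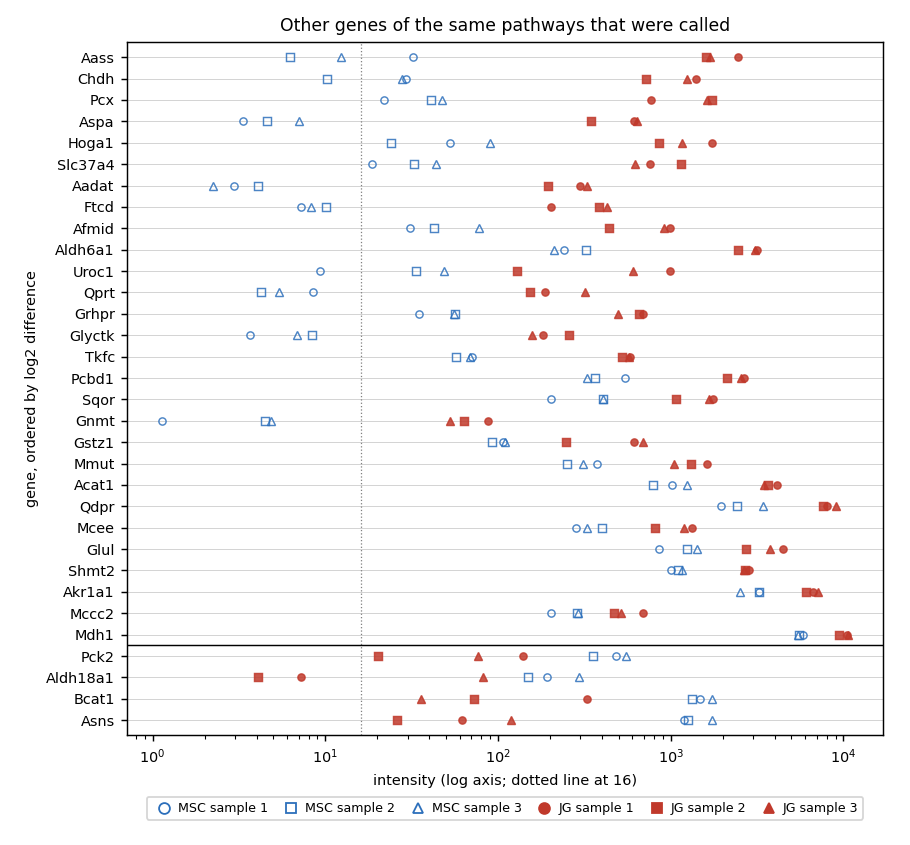
Intensity (log axis) on each array of the 32 called genes of the same pathways that are not members, ordered by log2 difference from Aass (5.93) at the top to Asns (-4.19) at the bottom. The line separates 28 genes higher in JG from 4 lower in JG.

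Of the regulators of these enzymes 10 were measured, 4 were called higher in JG and 0 lower, against 7.7% and 7.63% of all genes. At an unadjusted p under 0.05 again 0 were lower, against 2996 of all 18193 genes. With 10 genes, a count of 0 says little beside those shares. Hnf4a, a nuclear receptor of tubule epithelium and liver, read 947, 515 and 1322 in JG and 12.2, 15.7 and 12.8 in MSC (4.90 ± 0.37, adjusted p = 0.000568), and all 4 of its probe sets were called higher. Ppargc1a, a coactivator of gluconeogenic and mitochondrial genes, read 939, 444 and 507 and 20.6, 51.6 and 22.7 (3.74 ± 0.40, adjusted p = 0.00203). Both were above MSC in every JG sample. Ppara, a nuclear receptor of fatty acid use, differed by 3.99 ± 0.57 (adjusted p = 0.00680) and Foxo1, a factor that insulin signalling restrains, by 1.86 ± 0.38 (adjusted p = 0.0228), a call that ended on removal of MSC sample 1, 2 or 3 or of JG sample 3 (adjusted p up to 0.0862). Of the probe sets of Ppara 2 of 3 were called higher, and of Foxo1 2 of 4. Atf4, the factor that amino acid shortage induces, read 1699, 2573 and 2910.1 in JG and 3639, 3216 and 3022 in MSC on its brightest probe set and was not called (-0.49 ± 0.28, adjusted p = 0.283), while another of its 3 probe sets was called lower (-2.10, adjusted p = 0.00594 over all probe sets). Cebpa, Cebpb, Nr3c1, Crtc2 and Creb1 were not called on their brightest probe sets, and 1 of the 6 probe sets of Creb1 was called lower (-1.89, adjusted p = 0.0252 over all probe sets).

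Repeat probe sets bear on how far single members can be read. Of the 45 measured members 30 had 1 probe set, and the other 15 had 20 further probe sets. Called members had 12 of these 20, of which 6 were called higher, 0 lower and 6 were not called. The 8 of members that were not called were not called either. With any 1 sample left out, between 20 and 28 members were called higher in JG and 0 lower, and 20 of the 26 called members kept their call in all 6 such fits. The others were Ddo, Gldc, Hibadh, Bckdha, Ivd and Mccc1.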

How the data were processed

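Total RNA of 3 JG and 3 MSC samples was made into biotinylated cRNA for Affymetrix arrays, per the labels' protocols. The authors deposited 1 linear intensity per probe set and array, and their summarisation, background correction and scaling are not given in the sources used here. Medians per array ran from 27.3 to 36.5, and 34.4% to 41.5% of values per array lay below 16. The number of arrays limits the precision. On average JG arrays correlated at 0.85 to 0.89 with their own group and MSC arrays at 0.972 to 0.974, across genes, and JG sample 1 stood nearest to MSC (0.81).

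Of 45037 probe sets 34945 named 1 gene in the platform annotation, and the brightest by mean log2 value stood for each of 18193 genes. log2(intensity + 16) was fitted for all genes with limma 3.58.1 (lmFit, eBayes; R 4.3.3), JG minus MSC, without covariates or filter, with Benjamini-Hochberg adjustment. The fit was tested on simulated data with equal spread in both groups, which does not cover the wider spread of the JG samples. Figures used matplotlib 3.10.9. Alternatives, 1 at a time, were pseudocounts of 1 and 64, quantile normalization or median centring, 2 filters on dim genes, probe sets averaged, no probe sets with suffix s or x, trend with robust estimation, array weights, a block on replicate number, and each sample left out.

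The members and gene lists were chosen with earlier results of these data known. Values by sample are given for called members (in the branched chain group the 4 largest), for uncalled members without overlap and a difference of at least 1. Those of further members were added after their values were seen. Of other pathway genes the 8 largest called differences in each direction are named, and of regulators the called ones, Hnf4a, Ppargc1a and Atf4. Some regulators and 1 motif are not reported here.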

Additional observations from a re-analysis of the deposited data

How the results depend on the processing

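Across 17 alternatives the members called higher in JG numbered 20 to 33 and those called lower 0, and 20 of the 26 called members were called under every alternative that could test them. The count of all genes called, 2790, became 6177 with array weights and 1613 with the replicate number as a block, and ran from 1139 to 5194 with 1 sample left out. Removal of MSC sample 1 gave 1240, of MSC sample 2 gave 1152, of MSC sample 3 gave 1139 and of JG sample 1 gave 5194, and the cause was not tested. Other pathway genes called lower ran from 1 to 4 and those called higher from 19 to 34 with 1 sample left out. With the replicate block 24 members and 21 other pathway genes were called higher, and Ddo and Bckdha lost their call. Samples with the same number did not deviate together (correlations of -0.20, -0.01 and -0.01 across genes), and 0 of 6 samples correlated best with its own number, so the numbers were not taken to pair the samples. A pseudocount of 1 ended the call of Mccc1, and Dao could not be tested without probe sets of suffix s or x.

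Changes of sign arose only in members that were not called. Glud1 became 0.044 with quantile normalization, Arg2 -0.065 with the mean of its probe sets and Sardh -0.52 with a pseudocount of 1. With 1 sample left out Sardh ran from -0.92 to 1.29, Glud1 from -0.51 to 0.36, Hibch from -1.39 to 0.0080, Got1 from -0.59 to 0.22, Cth from -0.73 to 0.11 and Csad from -1.64 to 0.55. The cause was not tested.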

Other observations

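Different probe sets of 1 gene did not always put the JG samples in the same order. Of the 20 further probe sets of members, 13 reached an intensity of 100 in a JG sample, and in 5 of these another JG sample was the highest than on the gene's brightest probe set. Pck1 read 2866, 714 and 1301 in JG samples 1 to 3 on its brightest probe set, 627, 143 and 284 on another, and 4.64, 92.3 and 232 on the third, which in JG sample 1 lay within the MSC range of 3.62 to 5.45. Hgd read 2832, 998 and 2489 on its brightest probe set and 20.7, 163 and 151 on the other, where MSC sample 1 stood at 21.2. The third probe set of Pck1 and the other one of Hgd were lowest in JG sample 1, the sample that was highest on the brightest. Cbs read 863, 1872 and 1568 and, on its other probe set, 751, 303 and 191. Hibadh read 3606, 2079 and 3863 and 525, 813 and 319, and Mccc1 1702, 1043 and 1532 and 173, 307 and 232. In 8 of the 13 probe sets the highest JG sample was the same as on the brightest. The order of JG samples for a single member can therefore depend on the probe set, and what sets the probe sets apart was not tested.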
